A study of Mus musculus with 6 samples.

Results

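Thyroid hormone and retinoic acid are small, fat-soluble signals that cells import, activate and read with nuclear receptors, and astrocytes carry out several of these steps for the brain. The 8 genes described here, of the 32285 genes counted, cover that route. *Slco1c1* encodes OATP1C1, which carries thyroxine across membranes. *Dio2* encodes the type 2 deiodinase, which turns thyroxine into the active hormone triiodothyronine. *Thra* and *Thrb* encode the thyroid hormone receptors, *Rarb* a retinoic acid receptor and *Rxra* the retinoid X receptor that pairs with both receptor families. *Aldh1a1* encodes a retinaldehyde dehydrogenase that makes retinoic acid, and *Aldh1l1* its relative in folate metabolism, widely used to label astrocytes. In the classical view, astrocytes take up thyroxine and hand triiodothyronine on to neurons, which read it with their own receptors.

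The genes were a named list, chosen by their levels in astrocytes and pericytes and by their difference with *Agt* in these same cells, so levels by cell class and by *Agt* are descriptions without a test. The groups of mice were also part of how the list was drawn up, with earlier results of these data known. The p-values between groups given below are therefore not those of an independent test. The cells came from the amygdala of young adult wild-type male C57BL/6N mice, dissociated 90 min after behaviour in the presence of inhibitors of transcription and translation and sorted for astrocytes with the ACSA-2 antibody against ATP1B2. The labels call all cells astrocytes, although pericytes passed the sort. The 16 mice formed 4 groups of 4 and were first habituated to the conditioning chamber. NoFC mice were then placed there without shock, and FC mice were fear conditioned there. Other conditioned mice were, on the next day, recalled in the chamber (FR) or kept in the home cage without recall (NoFR). By the deposited hashtag table, library 1 pooled 2 mice of each group, library 2 pooled NoFC 3, FC 3, FC 4 and FR 3, and library 3 pooled NoFC 4, NoFR 3, NoFR 4 and FR 4. Hashtag antibodies, which bear a DNA tag read together with the RNA of a cell, marked the mouse of origin.

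Astrocytes were the barcodes with at least 20 UMIs (unique molecular identifiers, which count captured RNA molecules) of *Slc1a2* and *Slc1a3* together and at most 3 of *Vtn* and *Rgs5*. Pericytes, the contractile cells on brain capillaries, had at least 10 UMIs of *Vtn* and *Rgs5* and at most 5 of *Slc1a2* and *Slc1a3*. Of 13546 barcodes, 8757 were astrocytes (median 9891 UMIs per cell) and 2260 pericytes (median 5006). The other 2529 barcodes had a median of 761 UMIs. Astrocytes held the astrocyte markers at 17217 to 17788 CPM by library (a gene's UMIs over all gene UMIs of the class in that library, scaled as counts per 1000000) and the pericyte markers at 138 to 157 CPM, mostly *Pdgfrb* (71.9 CPM) and *Atp13a5* (62.5 CPM). Pericytes held the pericyte markers at 28065 to 28205 CPM and the astrocyte markers at 868 to 958 CPM, of which *Atp1b2*, the sort antigen, gave 676 CPM, while *Gfap* had 0 UMIs. The gate genes are on these lists, so the sums were partly set by the gates. Outside the gate genes, *Aqp4* was at 569 CPM in astrocytes and 5.35 CPM in pericytes, and *Gja1* at 1580 and 14.9 CPM. *Kcnj8* was at 0.485 and 1052 CPM and *Abcc9* at 0.685 and 1681 CPM, while *Atp1b2* differed little. By the markers outside the gates the labels held for the astrocytes, and the other class was named by its own markers. The 4 ependymal or tanycyte markers together were at 31.2 to 33.6 CPM in astrocytes by library. *Rax* gave 16.5 CPM and *Col23a1* 15.3 CPM of this. Endothelial UMIs were in 1.93% of astrocytes and 44.2% of pericytes, a share whose part in the results was not tested beyond the values given below. Of these markers in pericytes, *Flt1* (131 CPM) and *Slco1a4* (29.2 CPM) stood highest. *Itm2a* was at 9.38 CPM, *Cldn5* at 5.41 CPM, *Pecam1* at 1.40 CPM and *Ly6c1* at 0.810 CPM. Smooth muscle markers (*Acta2*, *Myh11* and *Tagln*) had UMIs in 26.0%, 25.9% and 27.0% of the pericytes of libraries 1, 2 and 3. Together they were at 201, 151 and 209 CPM, and their part in the results was not tested. Libraries shared 8, 7 and 3 cell barcodes in pairs.

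Retinoic acid receptors paired with retinoid X receptors are known to bind direct repeats of a short half-site, and *Rarb* is itself a classical target of retinoic acid. The stretch printed for *Rarb* is the minus strand of chr14:16575483-16575573, and its capitals mark GTTCA followed by a second GTTCA that begins 11 letters further on, ending 37 bases before the start of the RefSeq transcript. *Dio2* is known to be induced by cyclic AMP, and the stretch printed for its promoter is the minus strand of chr12:90739086-90739173, with the letters of the cAMP response element in capitals, ending 88 bases before the RefSeq start. Both come from the RefSeq promoter table for GRCm38.p6.
Rarb: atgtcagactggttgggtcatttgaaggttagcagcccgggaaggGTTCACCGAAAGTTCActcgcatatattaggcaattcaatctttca
Dio2: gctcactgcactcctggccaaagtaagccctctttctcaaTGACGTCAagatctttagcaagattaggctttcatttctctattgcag
Searched on both strands, the *Rarb* pattern was found in 22 of 32851 promoters of the same length (0.067%) and the cAMP response element in 508 (1.55%). The half-site AGGTCA was found in 14% of all promoters and in those of *Aldh1l1*, *Rxra* and *Thrb*. No promoter was printed for *Thra*. A match describes letters only.

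The deiodinase carries the rare amino acid selenocysteine, which is encoded by a TGA codon that would otherwise end translation. In the *Dio2* coding sequence of GENCODE vM21 (GRCm38), 2 TGA codons lie in frame among 266 codons, at codons 130 and 263. The first, marked in capitals, lies at chr12:90729823-90729825 within the stretch chr12:90729793-90729855, printed as the minus strand.
Dio2 codon 130: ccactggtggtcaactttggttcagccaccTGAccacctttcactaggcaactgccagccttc

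On GRCm38, *Slco1c1* (ENSMUSG00000030235) lies at chr6:141524368-141570177 on the plus strand and *Dio2* (ENSMUSG00000007682) at chr12:90724552-90738438 on the minus strand. *Thra* (ENSMUSG00000058756) lies at chr11:98740638-98769006 and *Thrb* (ENSMUSG00000021779) at chr14:17660261-18038090, both on the plus strand. *Rarb* (ENSMUSG00000017491) lies at chr14:16430839-16819156 on the minus strand and *Rxra* (ENSMUSG00000015846) at chr2:27676440-27762957 on the plus strand. *Aldh1a1* (ENSMUSG00000053279) lies at chr19:20492715-20643465 and *Aldh1l1* (ENSMUSG00000030088) at chr6:90486427-90600203, both on the plus strand. Exons of *Thra* share 263 bases with those of *Nr1d1* on the opposite strand, and exons of *Rarb* share 1793 bases with those of *Top2b*. *Dio2* overlaps the noncoding *Gm26512* by 100 bases, and *Aldh1l1* overlaps *Gm15756* by 499 bases and *Gm45901* by 105. Of these partners, *Gm45901* alone lies on the same strand as the member it overlaps. No source used here states the strand setting of the counting, and the part of the partners' reads in the shared bases was not tested. *Nr1d1* was counted at 81.6 CPM in astrocytes and 236 CPM in pericytes, *Top2b* at 128 and 190 CPM, and *Gm26512* at 188 and 0.770 CPM.

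The import and activation genes and *Aldh1l1* were far higher in astrocytes than in pericytes. Barcodes in neither class held *Slco1c1* at 290 CPM, *Dio2* at 83.3 CPM and *Aldh1l1* at 134 CPM. *Slco1c1* was at 545, 557 and 527 CPM in the astrocytes of libraries 1, 2 and 3 and at 4.07, 2.54 and 10.5 CPM in their pericytes. *Dio2* was at 126, 126 and 111 CPM in astrocytes and at 2.26, 0.565 and 1.34 CPM in pericytes. *Aldh1l1* was at 161, 161 and 162 CPM in astrocytes and at 2.49, 0.848 and 2.42 CPM in pericytes. For these genes the classes lay far apart in every library. The log2 ratio of astrocytes over pericytes was 6.83 ± 1.08 for *Slco1c1* (SD, n = 3 libraries), 6.66 ± 1.03 for *Dio2* and 6.55 ± 0.88 for *Aldh1l1*. In library 2 the ratio rested on few pericyte UMIs: 2 for *Dio2*, where the ratio of 223 had a 95% counting interval of 61.6 to 1840, and 3 for *Aldh1l1*, where the ratio of 190 had an interval of 65.0 to 922. Intervals here and below cover counting error only.

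*Slco1c1*, *Dio2* and *Aldh1l1* were counted in pericytes at low levels. Over all libraries, the pericyte level was 1.04% of the astrocyte level for *Slco1c1*, 1.20% for *Dio2* and 1.22% for *Aldh1l1*. For the astrocyte markers *Aqp4*, *Gja1*, *Aldoc* and *S100b* it was 0.934%, 0.930%, 1.24% and 1.30%. For *Slc1a3* and *Slc1a2*, which the gate itself limits, it was 2.68% and 0.907%, for *Gfap* 0% and for the sort antigen *Atp1b2* 83.1%. A barcode in a droplet can pick up free RNA, whose part in these levels was not tested. *Slco1c1* is also known in brain endothelium, and the 7 barcodes with at least 20 endothelial UMIs held it at 2291 CPM.

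The receptor genes divided between the classes. *Thrb* was at 286, 294 and 291 CPM in astrocytes and at 14.5, 15.0 and 20.9 CPM in pericytes, a log2 ratio of 4.13 ± 0.29 (SD, n = 3 libraries), and its pericyte level was 5.76% of that in astrocytes. *Thra* ran the other way, with 137, 143 and 148 CPM in astrocytes and 254, 258 and 267 CPM in pericytes, a log2 ratio of −0.87 ± 0.022. Among the thyroid hormone receptors, astrocytes therefore held more *Thrb* and pericytes more *Thra*, without overlap between libraries. The retinoid receptors differed less: *Rarb* was at 28.4, 25.5 and 28.5 CPM in astrocytes and 36.2, 32.5 and 40.0 CPM in pericytes (log2 ratio −0.40 ± 0.079), and *Rxra* at 12.2, 13.2 and 12.4 CPM against 8.38, 9.04 and 8.05 CPM (0.57 ± 0.045). *Aldh1a1* was shared by both classes, at 108, 80.2 and 96.3 CPM in astrocytes and 62.3, 69.2 and 62.8 CPM in pericytes (0.54 ± 0.30). Each of these genes kept its direction in all 3 libraries.

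Of the 8 genes, 4 were over 2-fold higher in astrocytes in 3 of 3 libraries and 0 were over 2-fold lower. Over the 10731 genes with at least 10 CPM in either class, 17.5% were higher by this rule and 21.3% lower, and the median log2 ratio was 2.35 for the 8 genes and −0.26 for all. As the genes were selected on this contrast, nothing is read from that difference. At the border of the gates, the 219 astrocytes with 20 to 24 UMIs of *Slc1a2* and *Slc1a3* held *Slco1c1* at 231 CPM and *Dio2* at 84.9 CPM, and the 333 barcodes just outside, with 15 to 19 UMIs, held them at 214 and 132 CPM. The 34 pericytes with 10 to 14 UMIs of *Vtn* and *Rgs5* held *Thra* at 84.0 CPM and the 54 barcodes with 5 to 9 UMIs at 142 CPM.

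**Figure D1:**
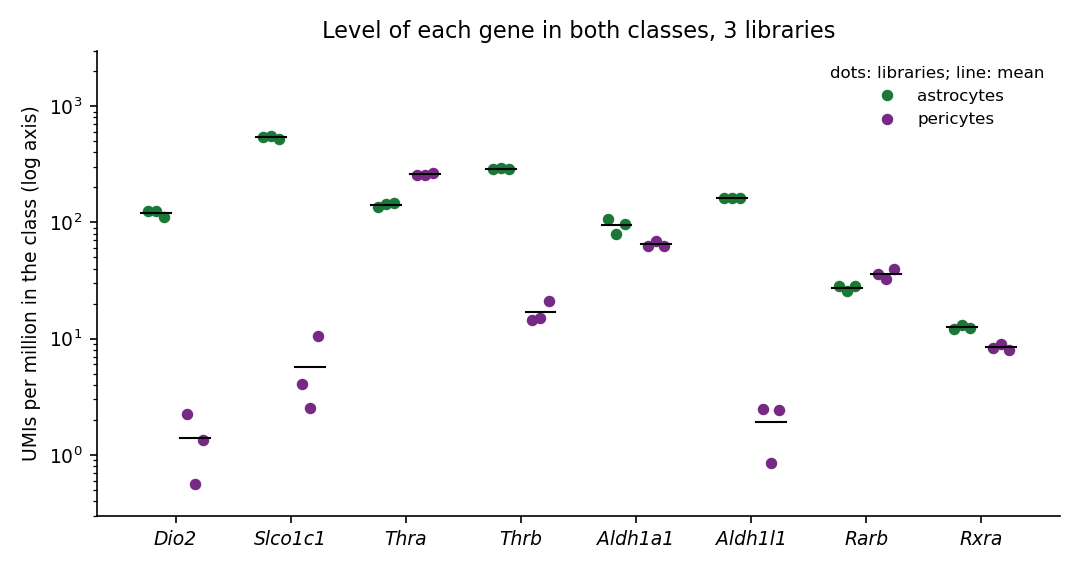
Level of the 8 genes in astrocytes and pericytes, in CPM on a log axis; dots are the 3 libraries and lines their means. *Slco1c1*, *Dio2*, *Aldh1l1* and *Thrb* sit far higher in astrocytes, *Thra* and *Rarb* lie higher in pericytes, and *Aldh1a1* and *Rxra* lie slightly higher in astrocytes.

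Counted by cells, the same order of the classes appeared for most genes. A *Slco1c1* UMI was found in 90.2% of astrocytes (95% Wilson interval 89.6% to 90.8%) and 2.21% of pericytes (1.68% to 2.90%). For *Dio2* the shares were 55.1% and 0.752%, for *Aldh1l1* 71.9% and 0.973%, and for *Thrb* 79.4% and 6.64%. *Thra* UMIs were in 68.5% of astrocytes and 68.0% of pericytes, a like share at about 2 times the depth in astrocytes. With every cell thinned to 5000 UMIs, which left out 990 astrocytes and 1126 pericytes as too shallow, the *Thra* share was 49.0% in astrocytes and 68.9% in pericytes, in the order of the CPM values. *Rarb* changed order in the same way, from 17.1% and 13.1% of cells to 10.2% and 14.6%. *Aldh1a1* was at 22.1% and 17.2% after thinning (29.0% and 18.6% before) and *Rxra* at 5.88% and 3.62% (11.5% and 4.07% before).

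Of the 8 genes, *Aldh1a1* had the highest variance over its mean in astrocytes. Although its UMIs were found in 29.0% of astrocytes, single cells held up to 89. In astrocytes thinned to 5000 UMIs, its variance over its mean was 2.79 ± 0.36 (SD, n = 3 libraries), where a count that scatters by sampling alone gives a ratio near 1, and the 5% of cells richest in it held 48.9% of its UMIs. That share was higher for *Rarb* (58.9%) and *Rxra* (82.3%), which were counted in fewer cells. The ratio was 1.80 for *Slco1c1*, 1.61 for *Thrb*, 1.39 for *Rarb*, 1.37 for *Dio2*, 1.16 for *Aldh1l1*, 1.14 for *Thra* and 1.03 for *Rxra*. This is a description, since the ratio also grows with the level of a gene. In pericytes, *Aldh1a1* was at 103 CPM in the 219 cells with at least 3 endothelial UMIs and 56.0 CPM in the 1260 without any, and at 164 CPM in the 29 cells with at least 3 fibroblast UMIs and 62.3 CPM in those without any. It was at 46.1 CPM in the 975 pericytes with no *Slc1a2* or *Slc1a3* UMI and 77.9 CPM in the 1285 with 1 to 5. The part of these other cell types in its pericyte level was not tested.

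Within astrocytes, the genes whose levels ran most alike with each member differed, as measured by the mean of the within-library correlations over 8757 astrocytes after depth was regressed out. The cells share their libraries, and the values are given as a description without a test. *Slco1c1* ran most alike with *Dclk1* (r = 0.39), *Luzp2* (0.30) and *Htra1* (0.28), and *Dio2* with *Luzp2* (0.21), *Igfbp2* (0.19) and *Slc1a2* (0.17). *Thrb* ran alike with *Rora* and *Lsamp*, each at 0.38. *Thra* was nearest to *Dbi* (0.14), *Aldoc* (0.13) and *Gstm1* (0.13), and *Aldh1l1* to *Aldoc* (0.16), *Glul* (0.16) and *Ldhb* (0.14). *Aldh1a1* was nearest to *Gm49164* (0.23), *Lypd6* (0.20) and *Neat1* (0.20). *Dio2* and *Slco1c1*, which act in sequence on thyroxine, had an r of 0.15 with each other. *Rarb* and *Rxra* were found in too few astrocytes for this measure.

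The wider thyroid hormone list showed a split between the classes as well. It held 16 further transporters, deiodinases, binding proteins and cofactors, of which 9 reached 10 CPM in either class, 1 was over 2-fold higher in astrocytes and 4 over 2-fold lower. The receptor coactivator *Ncoa1* was at 504 CPM in astrocytes and 154 CPM in pericytes. Among those higher in pericytes were the coactivator *Ncoa3* (22.3 and 79.6 CPM) and the transporter *Slco1a4* (0.253 and 29.2 CPM). *Slco1a4* is also on the list of endothelial markers. The deiodinase genes *Dio1* and *Dio3* had 0 UMIs in both classes, which with 3 counts as the limit allows up to 0.0328 CPM in astrocytes and 0.257 CPM in pericytes. *Dio2* was thus the deiodinase gene detected here.

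Among 8 genes known to respond to thyroid hormone, 5 reached 10 CPM, 2 of them over 2-fold higher in astrocytes and 2 lower. *Thrsp* (69.2 and 0.985 CPM) and *Me1* (92.0 and 1.30 CPM), both of lipid synthesis, were the higher ones, and *Nrgn* (2.88 and 36.2 CPM) and *Dbp* (84.7 and 213 CPM) the lower. *Klf9* was at 256 and 422 CPM. Of 21 retinoid genes, 9 reached 10 CPM, and 3 were over 2-fold higher and 3 lower in astrocytes. Among the higher were the carrier *Fabp5* (526 and 16.2 CPM) and the reductase *Dhrs3* (112 and 2.45 CPM). The retinol dehydrogenases *Rdh10* (17.9 and 40.0 CPM) and *Rdh5* (19.8 and 51.8 CPM) and the receptor *Rxrb* (13.7 and 30.3 CPM) were lower. The retinoic acid hydroxylase genes *Cyp26a1*, *Cyp26b1* and *Cyp26c1* had 1, 17 and 2 UMIs in all astrocytes. Of 14 further genes of folate metabolism, the setting of *Aldh1l1*, 8 reached 10 CPM, with 1 over 2-fold higher in astrocytes, *Mthfd1* (47.7 and 11.7 CPM), and 3 lower, among them the folate carrier *Slc19a1* (4.83 and 498 CPM).

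*Agt* encodes angiotensinogen, which some astrocytes make in quantity. Astrocytes with at least 3 *Agt* UMIs (3236 cells, median 10306.5 UMIs) were set beside those with none (2813 cells, median 8936 UMIs). *Aldh1a1* was at 70.3, 50.5 and 69.4 CPM in the *Agt*-rich astrocytes of libraries 1, 2 and 3 and at 137, 117 and 133 CPM in the *Agt*-free astrocytes, a log2 ratio of −1.03 ± 0.15 (SD, n = 3 libraries). *Dio2* was at 99.6, 104 and 87.5 CPM against 148, 139 and 128 CPM (−0.51 ± 0.09). *Slco1c1* was at 443, 482 and 454 CPM against 587, 608 and 589 CPM (−0.37 ± 0.04). For these genes the *Agt*-rich astrocytes lay below the *Agt*-free astrocytes in every library, without overlap. The share of all genes without overlap is not given here. Of the 8 genes, 4 were lower in 3 of 3 libraries, *Thrb* among them. Of the 9507 genes with at least 10 CPM in either *Agt* class, 33.8% were lower by this rule. *Thrb* was at 282, 286 and 283 CPM against 294, 331 and 326 CPM (−0.16 ± 0.08).

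The remaining genes were not lower in *Agt*-rich astrocytes in 3 of 3 libraries. With cells thinned before they were classed, *Rarb* was lower on average, at the value given in the section on processing. *Thra* had a log2 ratio of 0.12 ± 0.02 (SD, n = 3 libraries) and *Aldh1l1* 0.08 ± 0.07, the latter turning to −0.039 when cells were thinned before they were classed and to −0.049 as a mean over cells. *Rarb* (−0.01 ± 0.12) and *Rxra* (0.29 ± 0.27) differed in sign between libraries. Of the 8 genes, *Aldh1a1* was the 1 over 1.5-fold lower in 3 of 3 libraries and 0 were over 1.5-fold higher. Over 9507 genes, 2.07% were lower and 1.16% higher by this rule. The median log2 ratio was −0.08 for the 8 genes and −0.029 for all genes.

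Cells with 1 or 2 *Agt* UMIs lay between the extremes for *Aldh1a1*, at 105 CPM, and for *Dio2*, at 135 CPM, close to the *Agt*-free level. *Slco1c1*, at 601 CPM, stood slightly above its *Agt*-free level of 593 CPM. At the threshold itself, astrocytes with 2 and with 3 *Agt* UMIs held *Aldh1a1* at 96.4 and 86.9 CPM, *Dio2* at 135 and 126 CPM and *Slco1c1* at 585 and 563 CPM. When at least 5 *Agt* UMIs were required, the log2 ratios grew to −1.31 for *Aldh1a1*, −0.74 for *Dio2* and −0.56 for *Slco1c1*. Markers moved with *Agt* as well: the connexin gene *Gja1* was at 1851 CPM in *Agt*-rich and 1150 CPM in *Agt*-free astrocytes, the sort antigen *Atp1b2* at 935 and 610 CPM, and the neuronal markers *Rbfox3* at 0.767 and 9.33 CPM and *Snap25* at 3.07 and 8.16 CPM. Of the ependymal or tanycyte markers, *Rax* was at 20.4 and 11.1 CPM and *Col23a1* at 14.1 and 16.2 CPM. The part of all these markers in the differences was not tested.

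**Figure D2:**
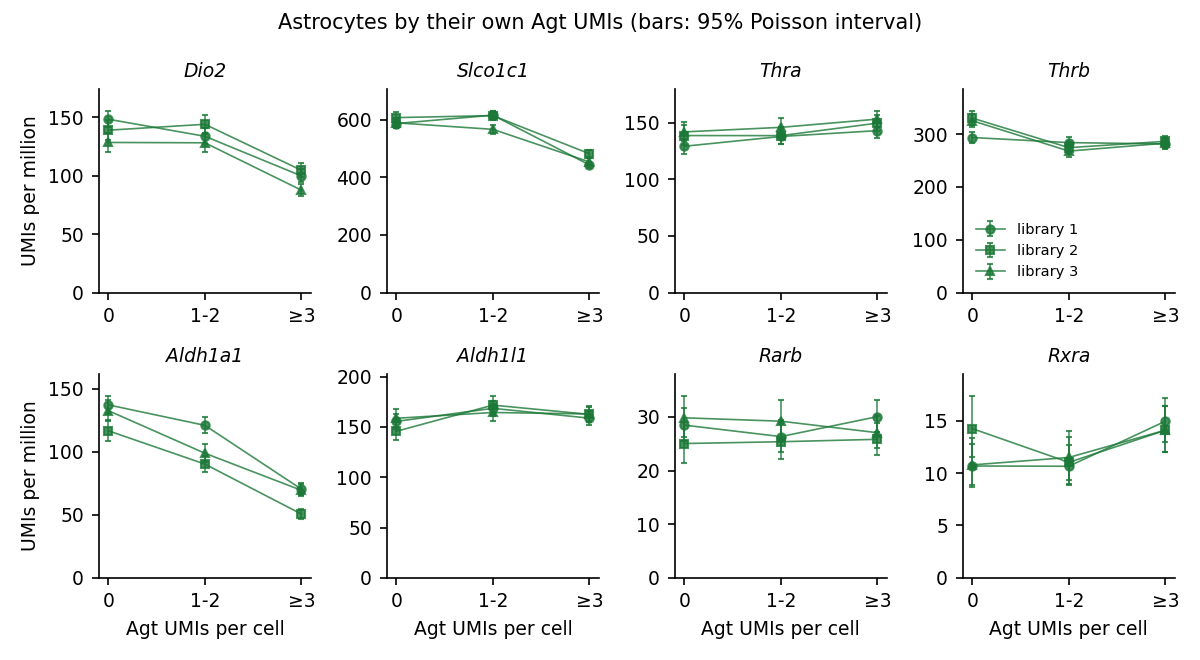
Level of each gene, in CPM (UMIs per 1000000), in astrocytes with 0, 1 to 2 and at least 3 *Agt* UMIs, with a symbol for each of the 3 libraries; bars are 95% Poisson intervals of the summed counts, and each axis starts at 0. *Aldh1a1* falls across the classes, *Dio2* and *Slco1c1* are lowest in the *Agt*-rich class in each library, and *Thra* and *Aldh1l1* stay nearly level.

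Other retinoid genes ran opposite to *Aldh1a1*. Of the 21 on the list, 8 reached 10 CPM, 4 were higher in *Agt*-rich astrocytes in 3 of 3 libraries and 0 were lower in all 3. Of all 9507 genes, 25.2% were higher in 3 of 3 libraries and 33.8% lower. The 4 were *Rdh5* (25.1 and 14.8 CPM, log2 ratio 0.75 ± 0.11, the 1 past 1.5-fold), *Rdh11* (32.7 and 23.7 CPM, 0.46), *Dhrs3* (120 and 94.4 CPM, 0.36) and *Rdh10* (19.5 and 15.6 CPM, 0.32), all enzymes that convert between retinol and retinaldehyde. On the thyroid list, 6 of 8 measured genes were lower in all 3 libraries, 1 was higher and 0 were past 1.5-fold. The corepressor gene *Ncor1* (−0.30) was among the lower. Of the hormone-responsive genes, *Thrsp* was at 53.9 CPM in *Agt*-rich and 82.9 CPM in *Agt*-free astrocytes (−0.60 ± 0.30) and *Klf9* at 264 and 227 CPM (0.22).

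The behavioural groups were compared over mice, with the UMIs of each mouse summed per class. A cell was given to a mouse when its strongest hashtag had at least 10 UMIs and at least 3 times the next. Hashtags were weak on astrocytes (median of the strongest 4 UMIs, of the next 2), so that 5.09% of astrocytes and 69.1% of pericytes were called. This left 335 astrocytes and 1024 pericytes of listed mice, while 111 and 538 cells carried a hashtag that matched no listed mouse in their library. In library 3 these were 58 of 101 called astrocytes and 301 of 559 called pericytes, and in library 2 they were 42 of 111 and 168 of 464. Their origin was not tested, and the levels by class and by *Agt*, which used all barcodes, include them. Pericytes numbered 36 to 110 per mouse in all 16 mice. Astrocytes numbered 3 to 159, with 159 in FC 1 alone, and 11 mice with at least 5 astrocytes entered the tests: NoFC 1 and 3, FC 1 and 2, NoFR 1 to 4, and FR 1, 3 and 4. FC 1 gave 47.5% of the assigned astrocytes but 6.45% of the assigned pericytes, and FR 3 gave 13.7% and 5.57%. Whether the astrocytes were given to the right mice was not tested. The called astrocytes are a small part of all, and whether they differ from the rest was not tested. *Rarb* was at 32.7 to 78.1 CPM in their group means and at 27.5 CPM over all astrocytes, on different scales. Unless stated otherwise, levels per mouse are TMM-scaled CPM over the UMIs of the genes kept by a filter on low counts. They are therefore not on the scale of the CPM over all genes used for the classes.

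In astrocytes, 6 of the 8 genes passed the filter on low counts (not *Rarb* and *Rxra*), and 0 were called in the 4-group test of edgeR's quasi-likelihood fit, against 1 of 3390 genes (0.0295%) in all. At an unadjusted p under 0.05, 94 genes passed, and DESeq2 called 3 genes, none of them a member. Of the members, 2 had an unadjusted p under 0.05: *Aldh1a1* with 6.32e-05 (adjusted p = 0.107) and *Dio2* with 0.0312 (adjusted p = 1.00). *Aldh1a1* passed in 7 of 18 alternatives, among them those without NoFC 3, FC 1, NoFR 3, FR 1, FR 3 or FR 4, and its adjusted p was 0.996 without NoFC 1. By pairs of groups, which share mice and so are not independent, edgeR called 1 gene in FC against NoFC (0.0295%), 3 in NoFR against NoFC (0.0885%), 1 in FR against NoFC (0.0295%) and 0 (0%) in FR against NoFR and in both comparisons of later groups with FC. In those last pairs 117 (FR against NoFR), 92 (NoFR against FC) and 89 (FR against FC) genes had an unadjusted p under 0.05, and DESeq2 called 0 in each.

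*Dio2* stood at 195.5 and 145 CPM in the NoFC mice 1 and 3, at 151 and 238 CPM in FC 1 and 2, and at 127, 134, 183 and 327 CPM in NoFR 1 to 4. In FR 1, 3 and 4 it was at 24.4, 99.4 and 82.9 CPM, from 1, 37 and 10 UMIs in 1, 18 and 5 cells. The values of NoFC 1 and 3 came from 15 and 14 UMIs, in 3 cells of each mouse. Those of FC 1 and 2 came from 239 and 28 UMIs in 101 and 10 cells. In NoFR 1 to 4 there were 13, 14, 17 and 10 UMIs, in 7, 7, 7 and 3 cells. The recalled mice lay below every other mouse, from which the same order within each library follows. In library 2 the only other mouse in the test was NoFC 3. How many of the genes tested separate the groups in this way is not given here. On the log2 scale FR differed from NoFC by −1.20 ± 0.48 (fold change and its standard error, edgeR's unadjusted p = 0.0181, adjusted p = 1.00), from FC by −1.50 ± 0.53 (0.00718, adjusted 1.00) and from NoFR by −1.13 ± 0.47 (0.0220, adjusted 0.998). Exact permutation tests of the mean CPM, 2-sided and without the library, gave p = 0.1 over NoFC and 0.1 over FC, each the smallest these numbers of mice allow, and 0.0857 over NoFR, where 0.0286 is the smallest. None passed after adjustment over all genes, and across the alternatives the fold change over NoFC ran from −2.27 to −0.18.

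*Aldh1a1* was lower in NoFR than in NoFC astrocytes by edgeR's test, by −2.41 ± 0.51 on the log2 scale (± standard error, adjusted p = 0.0410), but the call rested on 1 mouse. It was at 547 CPM in NoFC 1 and 72.6 CPM in NoFC 3, at 104 and 51.0 CPM in FC 1 and 2, at 87.8, 66.9, 172 and 262 CPM in NoFR 1 to 4, and at 0, 48.4 and 240 CPM in FR 1, 3 and 4. The groups overlapped. NoFC 1 had 10 astrocytes and 42 *Aldh1a1* UMIs, of which 27 lay in a single cell. Without that cell 15 UMIs were left, at 203 CPM over all genes. This value is without TMM scaling and so not on the scale of the 547 CPM. Without NoFC 1 the log2 fold change was −0.53 (adjusted p = 0.945), the call was also lost without NoFR 1, NoFR 2 or NoFR 4, and the exact permutation p was 0.467 where 0.0667 is the smallest. The log2 fold change was −2.23 ± 0.49 in FC over NoFC (adjusted p = 0.0847, permutation p = 0.667) and −2.06 ± 0.53 in FR over NoFC (adjusted p = 0.500, permutation p = 0.4). The other genes called in NoFR against NoFC, named after their values were seen, were *Arhgef28* and *Myoc*, all 73 of whose UMIs in NoFC 1 lay in 1 cell.

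The other members showed no pair with an unadjusted p under 0.05 in astrocytes. *Slco1c1* was at 609 ± 24.1 CPM in NoFC (SD, n = 2 mice), 657 ± 20.0 in FC (n = 2), 471 ± 40.8 in NoFR (n = 4) and 523 ± 99.7 in FR (n = 3). *Thrb* was at 421 ± 79.5, 368 ± 15.1, 325 ± 73.0 and 381 ± 72.6 CPM in the same order, and *Thra* at 175 ± 45.4, 166 ± 29.7, 121 ± 42.1 and 168 ± 34.0 CPM. *Aldh1l1* was at 224 ± 52.2, 236 ± 39.2, 184 ± 43.7 and 155 ± 35.3 CPM. Their unadjusted p in the 4-group test was 0.581 for *Slco1c1*, 0.746 for *Thrb*, 0.659 for *Thra* and 0.685 for *Aldh1l1*.

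In pericytes, 3 of the 8 genes passed the filter (*Thra*, *Aldh1a1* and *Rarb*), and 0 were called in the 4-group test, against 42 of 6543 genes (0.642%) in all. By pairs, edgeR called 70 genes in NoFR against NoFC (1.07%), 29 in NoFR against FC (0.443%), 6 in FR against NoFR (0.0917%), and 0 (0%) in FC against NoFC, FR against NoFC and FR against FC, where 299, 419 and 315 genes had an unadjusted p under 0.05 and DESeq2 called 0 in each. None of the members was called in any pair by either tool. Over the 4 groups, 483 genes had an unadjusted p under 0.05, of the members *Aldh1a1* alone. *Thra* was nearly level, at 262 ± 32.6 CPM in NoFC (SD, n = 4 mice), 286 ± 28.9 in FC, 293 ± 39.4 in NoFR and 298 ± 20.0 in FR. *Rarb* was at 37.9 ± 6.54, 34.9 ± 22.1, 41.6 ± 15.9 and 40.1 ± 11.0 CPM in the same order. Their unadjusted p was 0.571 and 0.961.

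*Aldh1a1* varied most among the members tested in pericytes. It was at 64.8, 75.0, 69.2 and 79.5 CPM in NoFC 1 to 4, at 93.6, 73.0, 145 and 99.8 CPM in FC 1 to 4, at 78.3, 16.9, 34.8 and 77.8 CPM in NoFR 1 to 4, and at 67.6, 47.4, 35.6 and 51.8 CPM in FR 1 to 4. Every FC mouse lay above every FR mouse, and the share of all tested genes that separate in this way is not given here. From FC to FR the log2 difference was −1.06 ± 0.29 (± standard error; edgeR adjusted p = 0.357, exact permutation p = 0.0286, the smallest that 4 mice against 4 allow). That of NoFR over FC was −0.95 ± 0.32 (adjusted p = 0.285, permutation p = 0.0857) and that of FC over NoFC 0.53 ± 0.25 (adjusted p = 1.00, permutation p = 0.0857). The unadjusted p over the 4 groups was 0.00335 (adjusted p = 0.210). None passed over all genes. From the separation of FC and FR mice it follows that FC mice 1 and 2 lay above FR mice 1 and 2 within library 1. It likewise follows that FC mice 3 and 4 lay above FR 3 within library 2.

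FC and FR mice were not separated in the pericytes without endothelial UMIs, 21 to 51 cells per mouse, an alternative chosen after seeing the data. In these cells, and without TMM scaling, *Aldh1a1* was at 52.3, 93.9, 52.6 and 147 CPM in FC 1 to 4 and at 95.1, 63.5, 21.8 and 43.2 CPM in FR 1 to 4, so that the groups overlapped. The 6 endothelial markers together, also without TMM scaling, were at 133 to 179 CPM in the pericytes of NoFC mice and 150 to 217 CPM in FC. In NoFR they were at 79.9 to 199 CPM and in FR at 146 to 627 CPM, the last being FR 4. *Slco1a4*, an endothelial marker that also transports thyroid hormone, was at 21.6 ± 9.52 TMM-scaled CPM in NoFC (SD, n = 4 mice), 44.8 ± 5.95 in FC, 29.3 ± 11.0 in NoFR and 56.7 ± 66.4 in FR. Its log2 difference was 1.30 ± 0.40 in FC over NoFC (± standard error, edgeR adjusted p = 0.820), −1.26 ± 0.46 in NoFR over FC (edgeR adjusted p = 0.362) and −0.03 ± 0.35 in FR over FC.

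**Figure D3:**
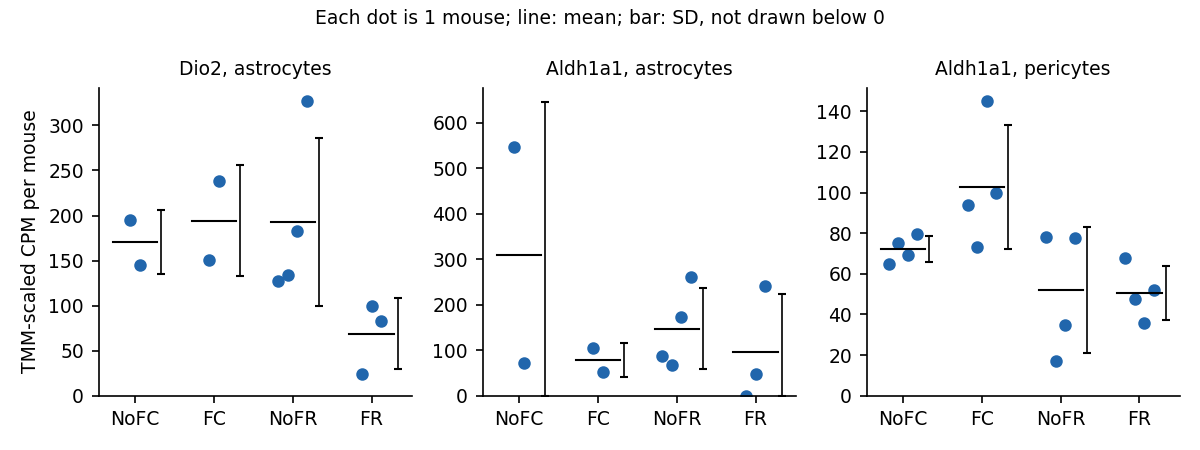
Levels per mouse by group, in TMM-scaled CPM, of the members with the smallest p in each class; each dot is 1 mouse, lines are means and bars SD. *Dio2* in astrocytes is lowest in the 3 FR mice, *Aldh1a1* in astrocytes has 1 NoFC mouse at 547 CPM, and *Aldh1a1* in pericytes is higher in every FC mouse than in any FR mouse.

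Of the genes known to respond to thyroid hormone, *Dbp* and *Klf9* changed in pericytes while the receptor gene *Thra* was not called. *Dbp* encodes a transcription factor driven by the circadian clock, and *Klf9* one that also responds to glucocorticoids. Of the 8 genes on the list, which was chosen with earlier results known, 3 were tested in pericytes. Of these, 2 were called lower in NoFR than in NoFC, beside 70 of all 6543 tested genes (1.07%) called in either direction. Those 70 included *Per1*, *Per2*, *Per3*, *Tef*, *Hlf*, *Nr1d2*, *Fkbp5*, *Tsc22d3* and *Zbtb16*, all lower in NoFR and not on the list. Others, such as *Rasl11a*, were higher. These were named after their values were seen. The part of thyroid hormone in the changes was not tested. *Dbp* was at 459, 360, 390 and 431 CPM in NoFC 1 to 4, at 266, 316, 293 and 284 CPM in FC 1 to 4, at 78.3, 61.9, 89.5 and 148 CPM in NoFR 1 to 4, and at 378, 270, 178 and 178 CPM in FR 1 to 4. *Klf9* was at 493, 514, 510 and 780 CPM in NoFC 1 to 4, at 586, 455, 495 and 519 CPM in FC 1 to 4, at 324, 360, 316 and 269 CPM in NoFR 1 to 4, and at 490, 545, 510 and 577 CPM in FR 1 to 4. For both genes every NoFR mouse lay below every mouse of the other groups, which includes the mice of its own library in libraries 1 and 3. The share of all tested genes with such a separation is not given here.

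*Dbp* fell from NoFC to NoFR by a log2 value of −2.13 ± 0.19 (± standard error, edgeR adjusted p = 2.71e-11) and was lower in NoFR than in FC (−1.65 ± 0.22, adjusted p = 2.16e-06) and higher in FR than in NoFR (1.35 ± 0.22, adjusted p = 0.000310). For *Klf9* the same comparisons gave −0.93 ± 0.14 (adjusted p = 7.61e-06), −0.84 ± 0.15 (adjusted p = 0.000680) and 0.83 ± 0.14 (adjusted p = 0.000717). All 3 calls of each gene stood in the 24 alternatives run, including each mouse left out in turn. FR over NoFC was −0.78 for *Dbp* (adjusted p = 0.0656) and −0.10 for *Klf9* (adjusted p = 0.924). *Nr1d1*, a clock repressor whose exons overlap those of *Thra*, was at 341 ± 37.3 CPM in NoFC (SD, n = 4 mice), 287 ± 24.6 in FC, 158 ± 45.2 in NoFR and 259 ± 44.3 in FR. The mice were kept on a light and dark cycle, and the study states that animals of different conditions were handled in parallel. The hour at which each was taken is stated in none of the sources used here, and its part in these differences was not tested. By the study's design, NoFR mice alone were not placed in the chamber on the day of sampling. The part of that exposure in these differences was not tested either.

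**Figure D4:**
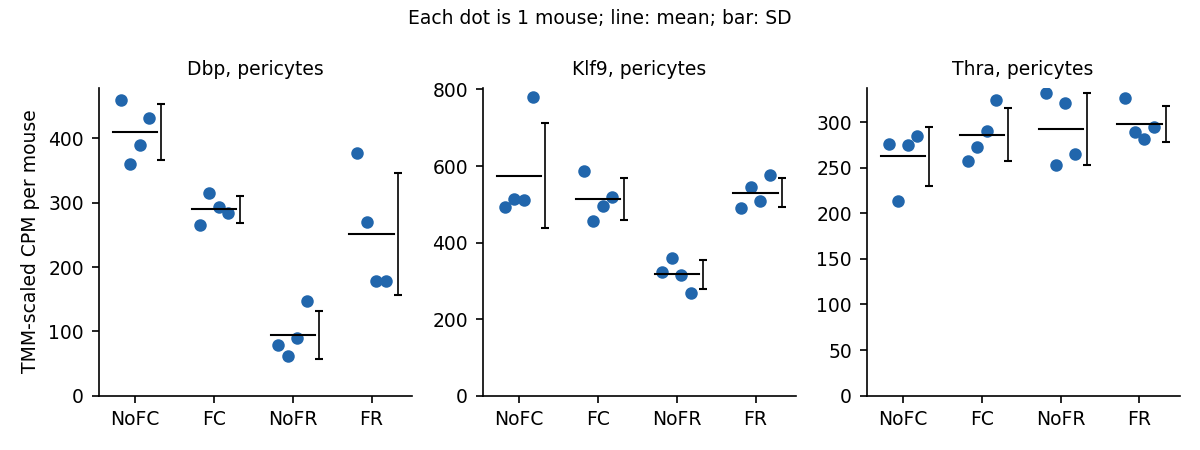
*Dbp*, *Klf9* and *Thra* in the pericytes of each mouse, in TMM-scaled CPM, by group; each dot is 1 mouse, lines are means and bars SD. *Dbp* and *Klf9* are lowest in the 4 NoFR mice, below all other mice, while *Thra* overlaps between the groups.

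The same genes were not called in astrocytes, at far fewer cells. *Dbp* was at 96.3 ± 48.1 CPM in NoFC (SD, n = 2 mice), 103 ± 10.8 in FC (n = 2), 108 ± 42.9 in NoFR (n = 4) and 83.3 ± 23.6 in FR (n = 3), and *Klf9* at 239 ± 30.2, 364 ± 86.1, 281 ± 140 and 257 ± 75.1 CPM. Whether the classes differed in their response was not tested. None of the thyroid list (4 genes tested in astrocytes, 8 in pericytes) or the retinoid list (2 and 4 tested) was called in any pair. Of the folate list, *Mthfd1l* was lower in NoFR than in NoFC pericytes (9.83 ± 8.48 against 40.7 ± 6.01 CPM, SD, n = 4 mice each; log2 fold change −1.85 ± 0.49, edgeR adjusted p = 0.0405), a call held by 15 of 24 alternatives and lost without NoFC 4 (−1.27, adjusted p = 0.566).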

How the data were processed

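Amygdala cells of 16 mice, pooled into 3 libraries, were read by 10x single-cell RNA sequencing. The deposited matrices hold raw counts of UMIs by barcode, for genes and for hashtags, which the authors made on mm10; the submitters' processing notes name Cell Ranger 3.0 and the file headers cellranger 7.0.0. Whether intronic reads were counted is stated in none of the sources used here. Groups came from the deposited hashtag table.

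The cell gates and thresholds are those stated with the results, and all barcodes were used. Doublets were treated only by the gates. Levels are CPM of summed UMIs, which are 3′ tags and were not compared between genes. For the groups, counts were summed per mouse and class (at least 5 cells; 19158 to 1886044 UMIs per mouse over all mice in astrocytes, 187654 to 629179 in pericytes) and fitted by edgeR 4.0.16 (R 4.3.3) with filterByExpr, TMM, library and group, by its quasi-likelihood test with Benjamini-Hochberg adjustment over all genes tested; the script was tested on simulated data. Alternatives were DESeq2 1.42.0, no library term, DESeq2's size factors, no low-count filter, looser hashtags (at least 5 UMIs and 2 times the next), barcode filters (at least 100 genes, under 6% mitochondrial UMIs), other minimum cell numbers, and each mouse left out. No library was left out in these fits. Python 3.11.15 with scipy 1.17.1 gave exact permutation tests and intervals.

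All 8 members are named, with fold changes between groups where the unadjusted p was under 0.05. Of the pathway lists, up to 4 genes were named by level in astrocytes or by passing the test, and others named were past the fold in the contrast. Members, gates and lists were chosen with earlier results of these data known. Likeness used genes found in at least 10% of astrocytes, for members found in at least 20%. Coordinates are from GENCODE vM21, in which all 8 members were found, and promoters from RefSeq. Some genes of the lists enter the counts but are not reported here by name.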

Additional observations from a re-analysis of the deposited data

Results flagged for a closer look

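Of 40 groups of 4 mice examined, 6 held a mouse whose level of a member stood apart from the other 3 by more than Dixon's limit. For normally distributed values chance alone gives about 1 in 20, a rate that does not hold for counts near 0. A mouse with any UMI beside 3 mice with 0 always passes the limit. All 6 lay in pericytes, where every group had 4 mice, as in astrocytes only NoFR did. In 4 of them the distance was a few UMIs of a gene counted rarely in pericytes. *Dio2* was at 4.29 CPM in FC 2 and at 9.47 CPM in FR 2, 2 UMIs in each mouse, with 0 in the other mice of either group. *Aldh1l1* was at 3.24 CPM in FR 4, from 1 UMI, with 0 in the other FR mice. *Slco1c1* was at 15.6 CPM in NoFR 4, from 4 UMIs, with 3.73 to 5.62 CPM in the other NoFR mice.

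The others concerned receptor genes. *Thra* was at 214 CPM in NoFC 2, from 57 UMIs, below the 275 to 284 CPM of the other NoFC mice. *Rarb* was at 23.7 CPM in FR 2, from 5 UMIs, below the 45.1 to 46.3 CPM of the other FR mice.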

How the results depend on the processing

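Directions of the class and *Agt* contrasts stood in every alternative for each gene that had the same sign in all libraries, except *Aldh1l1* by *Agt* (−0.039 thinned, −0.049 as a mean over cells). Log2 ratios that moved by over 1 SD were, for astrocytes over pericytes, *Rarb* −0.32 and *Rxra* 0.42 with stricter gates, *Thra* −0.84 and *Rxra* 0.62 as means over cells, and *Thra* −0.95, *Rarb* −0.29 and *Rxra* 0.63 without barcodes holding an endothelial UMI. By *Agt* they were *Dio2* −0.74, *Slco1c1* −0.56 and *Aldh1a1* −1.31 with at least 5 *Agt* UMIs, *Dio2* −0.89, *Slco1c1* −0.62, *Thra* 0.16, *Thrb* −0.29, *Aldh1a1* −1.31 and *Rarb* −0.23 with cells thinned first, *Slco1c1* −0.42 and *Thra* 0.16 with stricter gates, and *Slco1c1* −0.30, *Thra* 0.070 and *Thrb* −0.25 as means over cells. The causes were not tested.

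The tests over mice in astrocytes were fragile. For *Aldh1a1* the adjusted p over the 4 groups was 0.00248 without the low-count filter and 0.000581 to 0.996 with a mouse left out in turn. Without that filter FC over NoFC was at −2.10 on the log2 scale and called. That of NoFR over NoFC was no longer called without the library term (−1.24), by DESeq2 (−2.36), with the looser hashtag rule (−0.47), with barcodes filtered on genes and mitochondrial UMIs (−2.13) and with mice of at least 3 cells (−1.38), a setting chosen after seeing the data. With a mouse left out in turn it was −3.09 to −0.53, with FC over NoFC at −3.03 to −0.035 and FR over NoFC at −3.23 to −0.66. Astrocytes of mice with at least 20 cells could not be fitted, with 2 such mice, and this was not run.

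Counts of called genes in astrocytes were 4 in FC over NoFC, 3 in FR over NoFC and 1 in FR over NoFR without the filter, 1 in NoFR over NoFC without the library term and 1 by DESeq2, which called 0 in FR over NoFC, and 0 in FC, NoFR and FR over NoFC with the looser hashtags, the barcode filter or mice of at least 3 cells. With a mouse left out they were 1 to 2 in FC over NoFC, 1 to 4 in FR over NoFC, 0 to 3 in FR over NoFR, 0 to 2 in NoFR over FC and 1 to 6 in NoFR over NoFC. In pericytes, the counts without the filter were 8 in FC over NoFC, 10 in FR over NoFC, 55 in NoFR over FC, 2 in FR over FC and 17 in FR over NoFR. DESeq2 called 39 in NoFR over NoFC and 17 in NoFR over FC. Without the library term NoFR over FC gave 45 and FR over NoFR 10, and the looser hashtags gave 45, 10 and, in FR over NoFC, 2. With a mouse left out the counts were 0 to 1 in FC over NoFC, 0 to 3 in FR over FC, 0 to 4 in FR over NoFC, 3 to 13 in FR over NoFR, 14 to 40 in NoFR over FC (lowest without NoFR 1) and 25 to 77 in NoFR over NoFC (lowest without NoFC 4, and 43 without NoFR 1).

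No paired analysis was possible because mice of different groups share only a number, which marks the library for mice 1 and 2 alone, and the library was already a term of the fit.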
